A study of Homo sapiens and Mus musculus with 55 samples.

Results

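Putting a STING open reading frame (ORF) back into SUM159PT cells that carry a STING sgRNA was read out in 4 of the 55 RNA sequencing libraries of this study, 2 with a GFP ORF and 2 with a STING ORF. SUM159PT is an established human triple-negative breast cancer line. Both groups carry the STING sgRNA, so each is a STING-edited line plus 1 added ORF, and the GFP cells are the control. All genes were described whose mean over the 4 libraries was at least 10 normalized counts, which left 14915 of 26406 listed genes. Just inside that limit AC007325.3 averaged 10 normalized counts over the 4 libraries, and just outside it CTC-277H1.7 averaged 9.9961. The same contrast in MDA-MB-436, another triple-negative line, used 2 libraries with a STING sgRNA plus GFP ORF and 2 with a STING sgRNA plus STING ORF. In SUM159PT without any ORF, 2 mock libraries stood against 4 libraries with a STING sgRNA, 2 each of the groups labelled C1 and C2. The labels do not say which guide was used, whether C1 and C2 are single clones, which of them received the ORFs, which promoter drives the ORF, or whether a STING agonist or other treatment was given.

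STING is an adaptor in the endoplasmic reticulum membrane. The enzyme cGAS senses DNA in the cytosol and makes the cyclic dinucleotide cGAMP, STING binds it, moves to the Golgi and recruits the kinase TBK1. TBK1 activates the transcription factor IRF3, which drives type I interferon and a set of interferon-stimulated genes, while STING also activates NF-kB, the transcription factor behind many inflammatory cytokines. Reduced STING in tumour cells is known to weaken this response, and the series is concerned with repression of STING by MYC in such tumours. Values below are normalized counts, that is reads per gene divided by 1 factor per library, given for GFP library 1, GFP library 2, STING library 1 and STING library 2 in that order. Changes are log2 fold changes of STING ORF minus GFP on the log2(value + 1) scale, ± standard error, which understates the change of low genes. Genes said to have risen or fallen had an adjusted p below 0.05 in limma's moderated test over all 14915 genes. In bulk RNA, more cells expressing a gene and more RNA per cell cannot be told apart.

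The targeted gene was the gene that rose most. STING1, listed as TMEM173, had 65.4 and 81.1 normalized counts with GFP and 1599 and 1455 with STING, a log2 fold change of 4.37 ± 0.12 (limma adjusted p = 2.89e-21). Both STING libraries were far above both GFP libraries. Read depth was similar, with 7562170, 6986467, 6818137 and 6338238 reads recovered from the values. Per 1000000 reads of a library (RPM), TMEM173 therefore stood at 9.92 and 12.3 with GFP and at 235 and 215 with STING. For scale, mock SUM159PT libraries, in a table normalized separately, had 37.6 and 33.2 RPM, and the sgRNA libraries without an ORF had 13.4 to 16.4. The ORF libraries thus held more TMEM173 reads per library total than mock cells did, a difference across tables that was not tested. Counts per gene cannot separate reads of the ORF from reads of the edited endogenous gene.

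Across the table, 3875 of the 14915 genes tested changed (26%), with 1964 higher (13.2%) and 1911 lower (12.8%) with the STING ORF. At 2-fold or more, 204 genes rose (1.37%) and 279 fell (1.87%), and the median change over all genes was 0.01. Most called changes were therefore smaller than 2-fold. The shares of 13.2% and 12.8% are the background for the list counts of this comparison below. DESeq2 on the recovered reads called 1645. A fit that leaves out 1 library takes its spread from the pair of the other group alone. The STING pair differed more than the GFP pair (chi-square per gene 2.73 and 1.31). Fits without a GFP library therefore call fewer genes, and a call lost there does not show that it rested on that library. Changes also followed base composition. Over 12738 genes with a transcript, the log2 fold change correlated with transcript GC content across genes at r = -0.28, 576 genes rose and 106 fell in the lowest of 5 equal GC bins, and 125 rose and 728 fell in the highest. The difference between the 2 STING libraries followed GC content too (r = -0.45), and its part in the changes of single genes was not tested beyond a refit with a GC correction. After that correction, which covers those 12738 genes, 4847 were called and 55.7% of them were higher, against 51.6% of 3539 before.

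**Figure D1:**
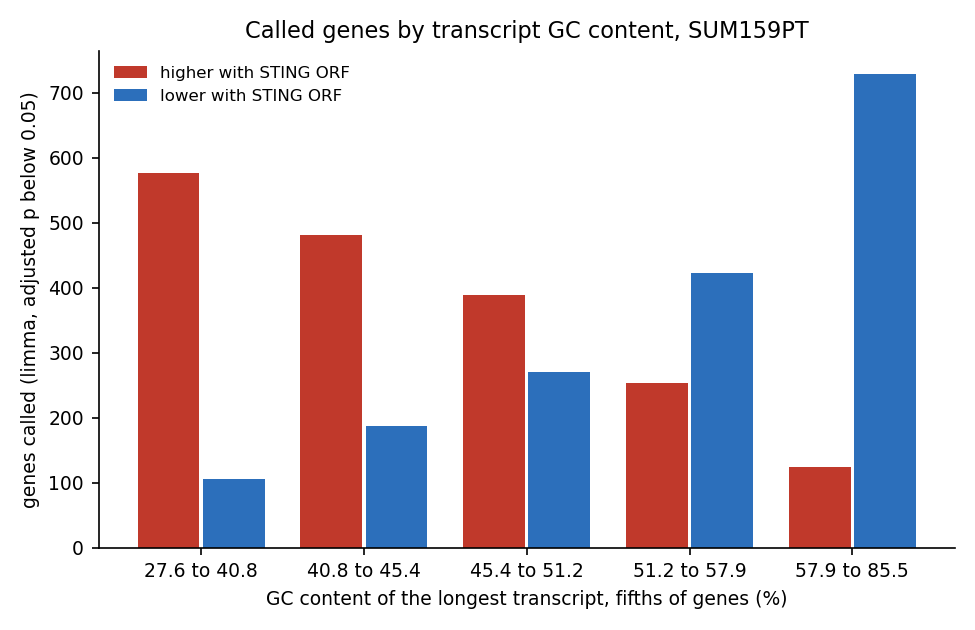
Number of genes called higher (red) or lower (blue) with the STING ORF in 5 equal bins of genes by GC content of the longest transcript in %. Higher calls go from 576 in the lowest bin to 125 in the highest, and lower calls from 106 to 728.

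Among the groups with rises are an interferon arm, an NF-kB arm and a hypoxia-type metabolic group, and the promoters of 7 of their genes are printed here because their letters hold the element each group is known for. They come from the RefSeq promoter table, build GRCh38.p14, within the 250 bases before the start site, and capitals mark the motif on either strand. The first group shows the core of the interferon-stimulated response element, GAAA and GAAA again with any 2 bases between, or its reverse complement.
IFIT1 (chr10:89392482-89392541, plus strand): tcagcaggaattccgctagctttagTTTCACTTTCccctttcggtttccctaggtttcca
IFIT3 (chr10:89332453-89332512, plus strand): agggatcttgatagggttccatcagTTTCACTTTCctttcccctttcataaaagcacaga
ISG15 (chr1:1013359-1013418, plus strand): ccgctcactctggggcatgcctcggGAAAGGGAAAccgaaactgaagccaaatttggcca
The second group shows GGANTTTCC, a kB element, or its reverse complement.
CXCL8 (chr4:73740453-73740511, plus strand): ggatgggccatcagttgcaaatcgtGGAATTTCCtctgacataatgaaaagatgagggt
IL6 (chr7:22727103-22727161, plus strand): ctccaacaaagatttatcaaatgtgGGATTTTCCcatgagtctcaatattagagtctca
TNFAIP3 (chr6:137867167-137867225, plus strand): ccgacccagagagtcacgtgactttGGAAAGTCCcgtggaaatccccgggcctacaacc
The last shows ACGTG, the core of the hypoxia response element, as its reverse complement.
CA9 (chr9:35673885-35673927, plus strand): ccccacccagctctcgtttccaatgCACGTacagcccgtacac
IFIT1, IFIT3 and ISG15 each hold further matches of the interferon element. In IFIT1 the matches begin at -116 and -103 from the start site and do not overlap. In ISG15 they begin at -113 and -107 and share bases. In IFIT3 the printed match begins at -51 and another at -94, and a second listed start site has matches at -156 and -122.

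Of 27305 genes with a promoter in that table, 3.71% held the interferon element, 1.79% held GGANTTTCC and 21.7% held ACGTG in these 250 bases. Of the 11 interferon-stimulated genes that rose, 7 had an entry and 7 held the interferon element (IFIT1, IFIT3, ISG15, IFIH1, DDX60L, PARP9 and BST2), as did 18 of the 32 other tested genes of the list with an entry. Of the 16 inflammatory and NF-kB genes that rose, 12 had an entry and 8 held the kB motif, against 4 of the 11 others. Of the 17 glycolysis and hypoxia genes that rose, 16 had an entry and 12 held ACGTG, against 4 of the 7 others. These matches describe letters, and binding was not measured.

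The other rises in the cGAS-STING pathway were smaller than that of TMEM173. Of 28 tested core members, 8 rose and 2 fell (13.2% and 12.8% over all genes), with a median log2 change of 0.19 against 0.01 over all genes, and TMEM173 was the single core member that rose by more than 2-fold. The DNA sensor cGAS, listed as MB21D1, had 301.7, 315.9, 370.3 and 383.9 normalized counts (0.29 ± 0.11, limma adjusted p = 0.0448). Its adjusted p ranged up to 0.407 when a library was left out. The kinase TBK1 had 316.5, 320.6, 327.4 and 378.6, and the transcription factor IRF3 had 603.3, 584.6, 721.7 and 615.4. Neither passed the test (limma adjusted p = 0.356 and 0.206). The relatives IKBKE (limma adjusted p = 0.757) and IRF7 (0.124) did not pass it either.

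Small rises were called in the DNA sensor IFI16 (0.29), the cGAMP hydrolase ENPP1 (0.41), the nucleotide hydrolase SAMHD1 (0.31), the DNA-binding protein BANF1 (0.23), the autophagy receptor SQSTM1 (0.26) and the chaperone HSP90AA1 (0.28). The 2 falls were larger than these rises. NLRX1, a mitochondrial protein known to restrain STING signalling, had 204.9, 198, 112.8 and 75.7 normalized counts (-1.12 ± 0.16, limma adjusted p = 7.64e-06). ZDHHC1, reported as a positive partner of STING, had 46.2, 49, 24 and 13.9 (-1.34 ± 0.27, limma adjusted p = 0.000601). In both genes the GFP and STING libraries did not overlap. The core list had 1 rise without GFP library 1 and 2 without GFP library 2, with 2 falls in each case, 12 rises and 5 falls without STING library 1, and 13 and 3 without STING library 2. DESeq2 called 3 rises and 2 falls.

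Among genes that carry STING to and from the Golgi and to lysosomes, 7 of 32 tested rose and 1 fell (median 0.09), which together is near the 26% called over all genes. The rises were small, from 0.28 for the coatomer subunit COPB1 to 0.39 for the autophagy gene ATG5, and the fall was RHBDF2, which encodes iRhom2, a stabilizer of STING (-0.45 ± 0.13, limma adjusted p = 0.0105). No rise was called without GFP library 1 or without GFP library 2, and 13 were called without STING library 1.

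**Figure D2:**
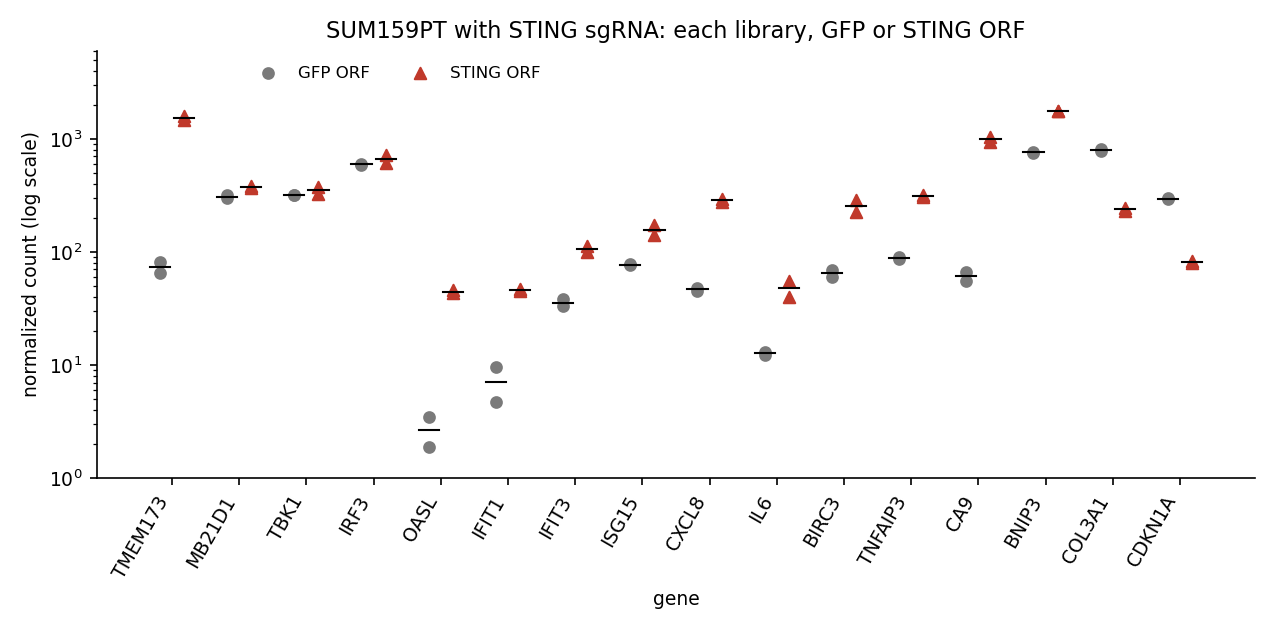
Normalized counts (log axis) of 16 genes in the 2 GFP libraries (grey circles) and 2 STING libraries (red triangles) of SUM159PT, with black bars at group means. TMEM173, OASL, IFIT1, CXCL8 and CA9 show wide gaps between groups, while MB21D1, TBK1 and IRF3 lie close together.

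No interferon gene was measured here. IFNB1 and the other interferons on the list were not listed in this table, and 6 receptor genes were tested. Of these, IFNGR2, a chain of the interferon gamma receptor, fell by 0.31 (limma adjusted p = 0.0486), and IFNAR1, IFNAR2, IFNGR1, IFNLR1 and IL10RB did not pass the test. The call of IFNGR2 was lost without either GFP library and without STING library 2. Among 18 tested JAK, STAT, IRF and feedback genes, 1 rose, and SOCS2, IRF5 and PIAS1 fell. Over all genes, 13.2% rose and 12.8% fell. SOCS2, a feedback inhibitor of cytokine receptors, had 19.2, 25.5, 6.99 and 10.7 normalized counts. It averaged 8.83 with STING and so passed the limit through the GFP libraries, where it had to be higher. Its test is therefore no independent support. The same holds for any fallen gene that averaged under 10 normalized counts with STING. IRF5, a transcription factor of inflammatory responses, had 62.8, 88.6, 33.9 and 42.7. Its STING libraries were both below its GFP libraries (-0.95 ± 0.21, limma adjusted p = 0.0014). Without GFP library 1 this list had 1 fall, and without GFP library 2 it had no call.

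A small set of interferon-stimulated genes rose strongly while most of the list did not pass the test. Of 49 tested members, 11 rose and 2 fell (13.2% and 12.8% over all genes), which together is near the 26% called over all genes. The median was 0.17, and 5 of the rises exceeded 2-fold. The antiviral protein OASL had 3.49, 1.89, 42.9 and 45.9 normalized counts (3.66 ± 0.39, limma adjusted p = 7.36e-08). IFIT1, which binds foreign RNA, had 9.59, 4.71, 44.9 and 46.9 (2.59 ± 0.34, limma adjusted p = 1.85e-06). Its relative IFIT2 had 10.5, 9.43, 49.9 and 49.1 (2.21 ± 0.28, limma adjusted p = 1.76e-06). All 3 genes averaged under 10 normalized counts with GFP and so passed the limit through the STING libraries, where they had to be higher. Their tests are therefore no independent support. IFIT3 and ISG15 were above the limit in every library.

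IFIT3, a partner of IFIT1, had 38.4, 33, 99.8 and 112 normalized counts (1.54 ± 0.19, limma adjusted p = 7.81e-07). The ubiquitin-like modifier ISG15 had 75.8, 78.3, 171.7 and 141.8 (1.01 ± 0.15, limma adjusted p = 2.04e-05). Groups did not overlap in any of these 5 genes, and their calls held when each library was left out. DESeq2 gave no adjusted p for OASL and called the others. Smaller rises included IFIH1 (0.45), PARP9 (0.44), ZNFX1 (0.41), DDX60L (0.36) and BST2 (0.34), and IFITM2 and RNF213 fell by 0.27 and 0.20. Several well-known members gave no call, among them MX1 (17.4, 10.4, 7.99 and 7.47), IFI44 (136.9, 104.7, 114.8 and 133.3), IFI6 (limma adjusted p = 0.056) and OAS3 (0.0549). The list had 5 rises without GFP library 1, 7 without GFP library 2, 15 without STING library 1 and 14 without STING library 2. DESeq2 called 6 rises and 0 falls (2 at an unadjusted limma p under 0.05), and the GC correction gave 19 rises and 3 falls.

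Members below the limit were read as summed reads of the 2 libraries of a group, with exact 95% intervals that cover counting error only. HERC5, the ligase that attaches ISG15, had 4 reads with GFP and 21 with STING, a ratio of 6.17 (2.02 to 23.9). OAS1, which makes the activator of RNase L, had 4 and 17 (4.88, 1.58 to 19.8), and MX2 had 3 and 14 (5.4, 1.48 to 28.8). The intervals of these 3 ratios lay above 1, while that of OAS2 did not (10 and 16 reads, 1.81, 0.777 to 4.49). BATF2 had 17 reads with GFP and 17 with STING (1.14, 0.546 to 2.37). XAF1 (6 and 4 reads, 0.781, 0.157 to 3.2) and RTP4 (6 and 3, 0.57, 0.0921 to 2.66) had ratios under 1. The intervals of BATF2, XAF1 and RTP4 all included 1. Among GTPases of the GBP and IRG families, GBP1 rose from 279 and 245.2 to 463.2 and 467.1 normalized counts (0.83 ± 0.11, limma adjusted p = 2e-06). GBP2, GBP3, GBP4 and IRGQ did not pass the test.

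Sensors of foreign RNA, which signal beside STING, gave 3 rises and 1 fall among 14 tested (median 0.08). Together this is near the 26% called over all genes. RIG-I, listed as DDX58, had 27, 20.8, 50.9 and 46.9 normalized counts (1.01 ± 0.24, limma adjusted p = 0.00267), a call lost without GFP library 2. DESeq2 did not call DDX58 (DESeq2 adjusted p = 0.0964), and its limma call was also lost without the limit of 10 normalized counts. IFIH1 and ZNFX1 are the other rises. MAVS, the adaptor of these sensors, had 1143, 1148, 872.4 and 895.9 and fell (-0.37 ± 0.08, limma adjusted p = 0.00103). The list had 1 rise without GFP library 1 or 2 and 5 without STING library 1.

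Of chemokines that draw T cells, CXCL16 alone passed the limit of 10 normalized counts. CCL5 had 1 and 0 reads in the GFP libraries and 11 and 8 in the STING libraries, a ratio of 22.4 with an interval of 3.44 to 898. CXCL10 had 0 reads with GFP and 1 with STING, and CXCL11 had 0 and 2, so no ratio can be given for either. CXCL16 was tested and did not pass (136, 144.3, 125.8 and 119.5, limma adjusted p = 0.341). Of chemokines that draw neutrophils and monocytes, CXCL8 was among the strongest responses of the table. It had 47.9, 45.3, 277.5 and 294.4 normalized counts (2.59 ± 0.15, limma adjusted p = 2.44e-13), with both STING libraries near a common value far above both GFP libraries. CXCL2 had 104.6, 109.4, 145.7 and 147.2 (0.45 ± 0.14, limma adjusted p = 0.0212) and lost its call without either GFP library. CXCL1 had 0 reads with GFP and 8 with STING, at least 3.01-fold higher when the GFP pair is set to the 3 reads that a count of 0 allows. The ratios of CXCL3 (0.964, 0.461 to 1.97) and CCL26 (6.57, 0.828 to 314), also below the limit, had intervals that included 1. CCL20 and CSF1 did not pass the test (limma adjusted p = 0.184 and 0.64).

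The inflammatory and NF-kB list moved mainly up, with 16 of 31 tested members higher and 0 lower (median 0.53). At an unadjusted limma p under 0.05, 1 member was lower, and edgeR and DESeq2 called 0 lower. Cytokines and acute-phase genes rose: IL6 had 13.1, 12.3, 39.9 and 55.5 normalized counts (1.81 ± 0.28, limma adjusted p = 2.29e-05). IL1A, an alarm cytokine, had 6.97, 4.71, 18 and 24.5 (1.71 ± 0.40, limma adjusted p = 0.00229), and it too passed the limit through the STING libraries. SAA2, an acute-phase protein, had 172.6, 156.5, 490.1 and 519.4 (1.61 ± 0.11, limma adjusted p = 1.97e-11). The pattern-recognition protein PTX3 rose by 2.17, the cytokine LIF by 0.72 and SAA1 by 0.55. In each of these genes both STING libraries were above both GFP libraries.

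Feedback and survival genes of NF-kB rose alongside. BIRC3, an inhibitor of cell death, had 60.2, 69.8, 223.6 and 288 normalized counts (1.95 ± 0.15, limma adjusted p = 1.6e-10). TNFAIP3, which encodes the deubiquitinase A20 that switches NF-kB off, had 86.3, 89.6, 321.4 and 307.2 (1.82 ± 0.13, limma adjusted p = 3.23e-11). Groups did not overlap in either gene. The inhibitor NFKBIA rose by 0.62, NFKBIZ by 0.64, TNIP1 by 0.60, the subunits NFKB2 and RELB by 0.62 and 1.02, the adhesion molecule ICAM1 by 0.65, the cytokine IL32 by 0.44 and the superoxide dismutase SOD2 by 0.53. The list had 14 to 16 rises whichever library was left out, with 2 falls without STING library 1, 13 rises with DESeq2, and 18 rises and 1 fall with the GC correction. Below the limit, IL1B had 5 reads with GFP and 14 with STING (3.14, 1.08 to 11.3). IL11, IL24, LCN2 and TRAF1 had ratios under 1 and VCAM1 a ratio over 1, all with intervals that included 1.

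Surface ligands seen by T and natural killer cells rose in 8 of 15 tested members and fell in 0 (median 0.31), with 1 lower at an unadjusted limma p under 0.05, 1 by edgeR and 0 by DESeq2. CD274, which encodes PD-L1, had 180.5, 176.3, 304.4 and 333.8 normalized counts (0.83 ± 0.12, limma adjusted p = 7.33e-06). PDCD1LG2, which encodes PD-L2, had 41, 50.9, 95.8 and 115.2 (1.18 ± 0.18, limma adjusted p = 2.69e-05). In both genes the groups were apart. Stress ligands of the receptor NKG2D rose, ULBP2 by 0.76, RAET1E by 0.70 and MICB by 0.60, as did the ectonucleotidase NT5E by 0.48, the receptor ligand PVR by 0.40 and the phagocytosis inhibitor CD47 by 0.31. The list had 4 rises without GFP library 1, 6 without GFP library 2 and 4 with DESeq2.

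Antigen presentation on class I moved little in size. Of 21 tested genes, 8 rose and 2 fell (median 0.20). The class I heavy chain HLA-B had 1508, 1472, 1912 and 1843 normalized counts (0.33 ± 0.07, limma adjusted p = 0.00102), the proteasome subunit PSMB9 rose by 0.41, the peptide transporter genes TAP2 and TAP1 by 0.36 and 0.28, and B2M by 0.24. HLA-E, a ligand of inhibitory natural killer receptors, fell by 0.32 and the class I regulator NLRC5 by 0.26. The list had 2 rises without GFP library 1 or 2, and 4 with DESeq2. Of 8 class II genes tested, HLA-DPB1 alone was called, with 96.8, 101.8, 53.9 and 53.3 (-0.88 ± 0.17, limma adjusted p = 0.000467).

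Among lists with at least 5 tested members, glycolysis and hypoxia had the highest share of rises, with 17 of 25 higher and 0 lower (median 0.39). At an unadjusted limma p under 0.05, 21 were higher and 0 lower. CA9, a surface carbonic anhydrase and a classical hypoxia marker, was the second-strongest rise among genes averaging at least 50 normalized counts. It had 66.3, 55.6, 1034 and 943.9 (4.00 ± 0.12, limma adjusted p = 7.03e-20). The mitophagy gene BNIP3 had 748.1, 771.3, 1747 and 1760 (1.21 ± 0.08, limma adjusted p = 2.94e-12), and the enolase ENO2 had 223.2, 199, 532 and 498.1 (1.28 ± 0.11, limma adjusted p = 1.04e-09). The 2 groups were far apart in all 3 genes. The vasodilator peptide ADM rose by 1.46, the aldolase ALDOC by 1.20, the pyruvate dehydrogenase kinase PDK1 by 1.13, the stress gene NDRG1 by 1.06, the oxygen sensor EGLN3 by 0.64 and the collagen hydroxylase P4HA1 by 0.63.

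Abundant glycolytic enzymes rose less, PGK1 by 0.52, PGAM1 by 0.40 and LDHA by 0.29, while GAPDH had 16450, 16190, 16490 and 16380 and did not pass the test (limma adjusted p = 0.89). VEGFA, the angiogenic factor also induced by hypoxia, did not pass it (763.8, 825.1, 920.3 and 830.8, limma adjusted p = 0.251). HIF1A, the hypoxia-inducible factor, had an adjusted p of 0.123. The list had 12 rises without GFP library 1 or 2, 18 and 23 without STING library 1 and 2, 15 with DESeq2, 17 with edgeR and 24 with the GC correction, with 0 falls in each. Culture density and oxygen are not given in the labels and were not tested.

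**Figure D3:**
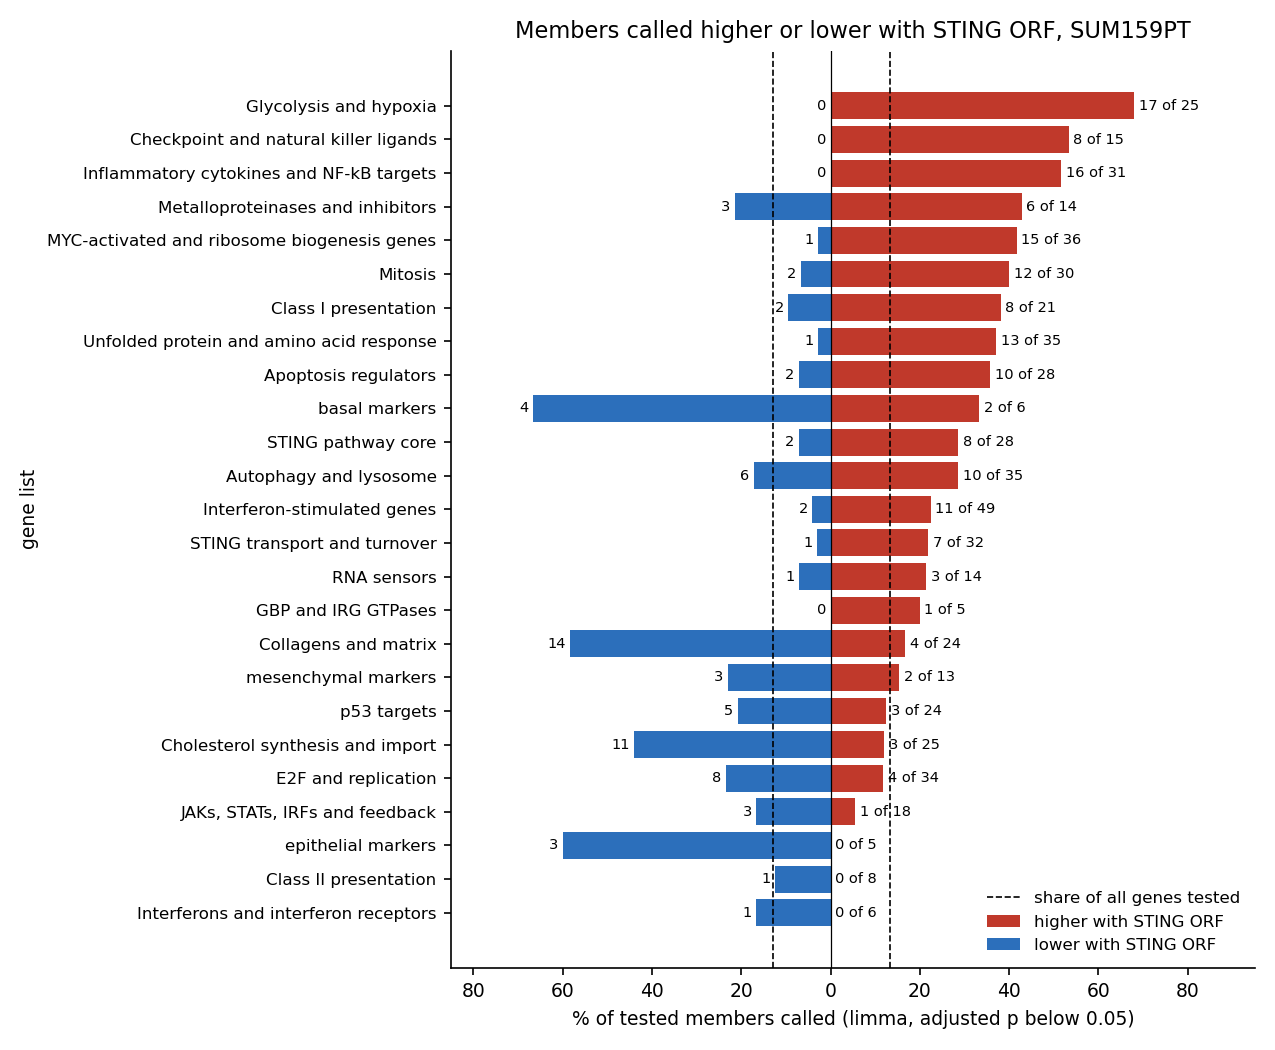
Share of tested members (%) called higher (red, right) or lower (blue, left) with the STING ORF in each gene list with at least 5 tested members, with counts at the bars and dashed lines at 13.2% and 12.8%, the shares over all genes. Glycolysis and hypoxia (17 of 25) and the inflammatory list (16 of 31) reach far right, and collagens and matrix (14 of 24 lower) reach far left.

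Genes of cholesterol synthesis and import fell in 11 of 25 tested members and rose in 3 (median -0.22). HMGCS1, an early enzyme of the pathway, had 1002, 1063, 658.8 and 654.8 normalized counts (-0.65 ± 0.08, limma adjusted p = 1.94e-06). INSIG1, which retains the sterol sensor in the endoplasmic reticulum, had 678.3, 629.9, 402.3 and 412.7 (-0.68 ± 0.09, limma adjusted p = 6.32e-06). Both STING libraries were below both GFP libraries in these genes. The master regulator SREBF2 fell by 0.57, PMVK by 0.76 and MVD by 0.59, while SC5D rose by 0.50, STARD4 by 0.31 and ACAT2 by 0.26. Falls numbered 6 without GFP library 1 or 2, and 7 with DESeq2.

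Extracellular matrix genes fell in 14 of 24 tested members and rose in 4 (median -0.25). COL3A1, the type III collagen chain, had 809.1, 777.9, 246.5 and 228.2 normalized counts (-1.74 ± 0.10, limma adjusted p = 2.95e-13). COL8A1, a short-chain collagen, went the other way, with 2038, 2168, 4529 and 4797 (1.15 ± 0.06, limma adjusted p = 1.33e-13). Both genes separated the groups completely. Falls were called in the microfibril gene FBN1 (-0.89), in COL5A3 (-0.84), COL5A2 (-0.79), COL1A1 (-0.62), COL6A2 (-0.62) and fibronectin FN1 (-0.29), and rises in CYR61 (0.94), a matricellular protein, the crosslinking enzyme LOXL2 (0.57) and tenascin TNC (0.43). Leaving out GFP library 1 or 2 gave 8 falls and 4 rises.

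Of 14 tested proteases of the matrix and their inhibitors, 6 rose and 3 fell. The secreted protease ADAMTS12 had 249.4, 238.6, 371.3 and 349.8 normalized counts (0.56 ± 0.11, limma adjusted p = 0.000443), and ADAMTS6, of the same family, rose by 1.23. PLAU, the plasminogen activator urokinase, had 54.9, 65.1, 35.9 and 34.1 normalized counts (-0.76 ± 0.21, limma adjusted p = 0.00919). Its STING libraries were both below its GFP libraries. The call of PLAU was lost without GFP library 2. Without GFP libraries 1 and 2 in turn the list had 2 and 1 falls, and without STING library 1 it had 5.

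Of cell type markers, both groups expressed the mesenchymal filament VIM (12570, 12460, 10300 and 9736 normalized counts) and the keratin KRT8 (8240, 8043, 7071 and 6614), and the epithelial cadherin CDH1 was not listed. Basal markers moved most. TP63, a master regulator of basal cells, had 92.4, 92.4, 26.9 and 36.3 normalized counts (-1.53 ± 0.20, limma adjusted p = 2.58e-06). The basal keratins KRT5 and KRT6A fell by 1.54 and 1.55 and the integrin ITGB4 by 3.09, while the laminin chain LAMB3 rose by 0.58. All 6 tested basal markers were called, 4 of them lower. ITGB4 got no adjusted p from DESeq2, and its limma call was lost without the limit of 10 normalized counts. Its fall is therefore not taken as support. Of 13 mesenchymal markers, 2 rose (SNAI2 and ZEB1) and 3 fell (VIM, FN1 and S100A4). DESeq2 called 0 rises and 3 falls in that list, and the GC correction gave 1 rise and 3 falls. Of 5 epithelial markers, CLDN7, MUC1 and KRT8 fell, with 1 fall without GFP library 1, none without GFP library 2 and 5 without STING library 1. Myeloid, T cell and natural killer markers had 0 tested members, and their summed levels were 10.7 to 32.9 normalized counts for the 9 listed myeloid genes and 8.98 to 16 for the 6 listed T and natural killer genes. None of 3 tested fibroblast or 4 tested endothelial markers was called by limma, edgeR or DESeq2, and 1 fibroblast marker was higher and 1 endothelial marker lower at an unadjusted limma p under 0.05.

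By rank, the 12 highest genes that averaged at least 50 normalized counts with groups apart were TMEM173, CA9, OLR1, CXCL8, IL1RL1, ARFGEF3, BIRC3, IL7R, TNFAIP3, CTB-78F1.1, MARCH4 and BEX1. OLR1, a scavenger receptor for oxidized LDL, had 18.3, 14.1, 116.8 and 141.8 (2.92 ± 0.22, limma adjusted p = 5.8e-11). IL1RL1, the receptor of the cytokine IL-33, had 90.7, 109.4, 529 and 582.3 (2.47 ± 0.12, limma adjusted p = 1.92e-14), and IL7R, the receptor of interleukin 7, had 104.6, 96.2, 341.4 and 378.6 (1.83 ± 0.13, limma adjusted p = 1.93e-11). These receptors stood apart between the groups by a wide margin.

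The 12 lowest, with 3 listed rows of the same transcript counted singly, were ISLR, APOE, OLFML2A, CD9, CDKN1A, CXXC5, H19, H19_2, ATP2A3, COL3A1, H19_1 and CPNE2. APOE, the lipid-carrying apolipoprotein, had 292.1, 334.8, 52.9 and 61.9 normalized counts (-2.43 ± 0.14, limma adjusted p = 6.26e-13). CDKN1A, which encodes the cell cycle inhibitor p21, had 301.7, 291.4, 82.8 and 80 (-1.85 ± 0.13, limma adjusted p = 3.4e-11). The imprinted non-coding RNA H19 had 612.9, 656.3, 185.7 and 169.6 (-1.83 ± 0.11, limma adjusted p = 4.98e-13), and reads may be split between its 3 rows. The tetraspanin CD9 fell by 2.05. STING libraries were below GFP libraries in each.

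The sgRNA comparison asks whether losing STING moved the same genes the other way. It shares no library with the ORF comparison, and its table was normalized separately, so changes stand side by side without a test of their difference. The sgRNA against mock called 5927 of 15168 genes (39.1%). Of 14700 genes tested in both, 3828 were called with the ORF and 5813 with the sgRNA, and 1774 in both (46.3% and 30.5% of each list), of which 1060 (59.8%) moved in opposite directions. At 2-fold or more, 439 and 446 genes were called and 110 were shared (25.1% and 24.7%). The ORF called 1.37% higher and 1.87% lower at this size, and the sgRNA 1.84% higher and 1.66% lower. Of these 110, 49 were higher with the ORF and lower with the sgRNA, 44 the reverse, and 17 moved the same way, so that 84.5% were opposite. The difference between this share and the 59.8% over calls of any size was not tested. Changes with the sgRNA also followed transcript GC content (r = -0.22, against -0.28 with the ORF), and its part in these directions was not tested.

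**Figure D4:**
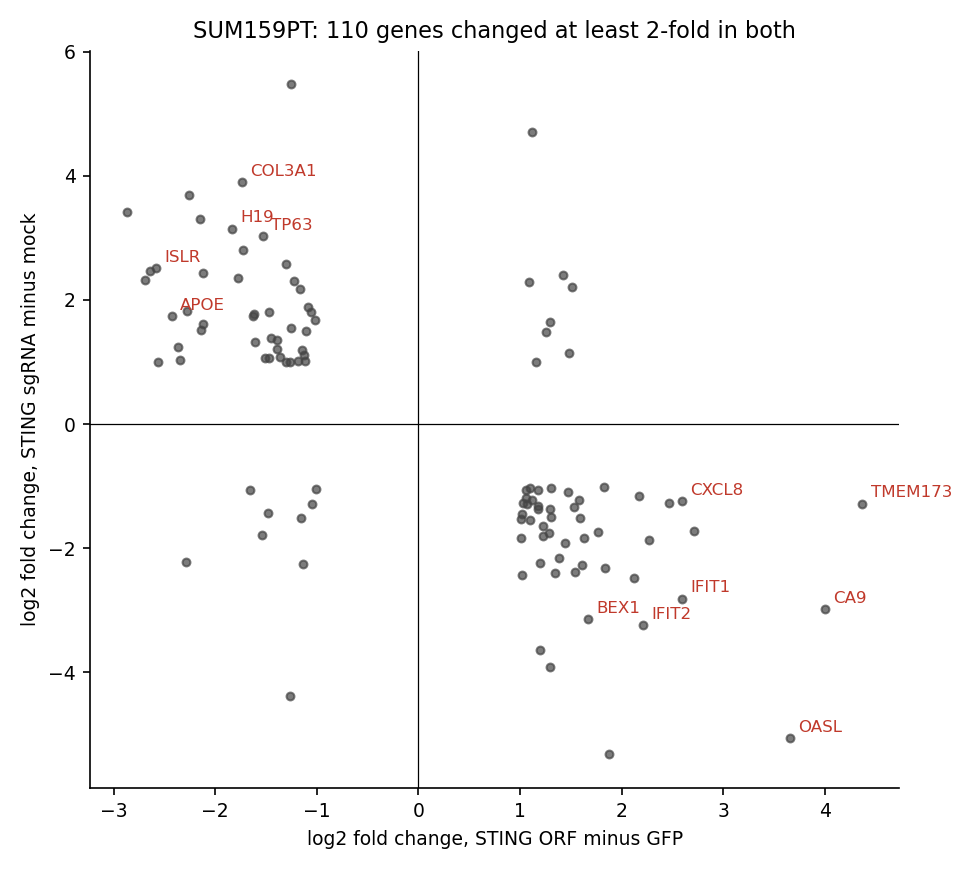
Log2 fold change with the STING ORF (x axis) against log2 fold change with the STING sgRNA (y axis) for the 110 genes changed at least 2-fold in both comparisons in SUM159PT, 1 point per gene. Most points (93) lie in the upper left and lower right, with COL3A1 and OASL near their ends.

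In the interferon arm the strongest genes moved the other way. With the sgRNA, OASL changed by -5.05, IFIT2 by -3.24, IFIT1 by -2.81, IFIT3 by -2.39 and ISG15 by -1.53, all called by limma. OASL, IFIT2 and IFIT1 averaged 3.32, 9.42 and 9.07 normalized counts with the sgRNA, so they passed the limit through the mock libraries. They had to be higher there, and their sgRNA tests are no independent support. IFIT3 and ISG15 averaged 43.3 and 77.8 with the sgRNA, above the limit. The whole list of interferon-stimulated genes gave 10 rises and 15 falls of 50 tested with the sgRNA (19.3% and 19.8% over all genes). IFIH1 and ZNFX1, which rose with the ORF, did not pass the test with the sgRNA (limma adjusted p = 0.569 and 0.0674), and PARP9 rose in both comparisons (0.36 with the sgRNA). The inflammatory list gave 17 falls and 3 rises of 30 tested with the sgRNA, with SAA2 at -2.27, CXCL8 at -1.24, IL6 at -0.97, BIRC3 at -0.94 and TNFAIP3 at -0.73.

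The hypoxia group was also opposite, with 18 of 25 members lower and 0 higher with the sgRNA by limma (0 higher at an unadjusted p under 0.05, by edgeR or by DESeq2). CA9 averaged 176.9 ± 38.4 normalized counts in mock cells (SD, n = 2) and 22.1 ± 7.26 in sgRNA cells (SD, n = 4), a change of -2.98. ENO2 changed by -0.65, BNIP3 by -0.45 and EGLN3 by -0.77. Among genes that fell with the ORF, COL3A1 rose by 3.90 with the sgRNA, TP63 by 3.03, H19 by 3.15, ISLR by 2.51 and APOE by 1.74. Other genes moved the same way in both comparisons, 345 higher and 369 lower. Among collagens, COL6A3 and COL1A1 fell in both comparisons, by 0.68 and 0.62 with the ORF and by 4.25 and 2.09 with the sgRNA. The cholesterol list fell in both comparisons, with 12 falls and 2 rises with the sgRNA, although INSIG1 changed there by only -0.14. The checkpoint ligands CD274 and MICB, which rose with the ORF, had no call with the sgRNA (limma adjusted p = 0.102 and 0.26).

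**Figure D5:**
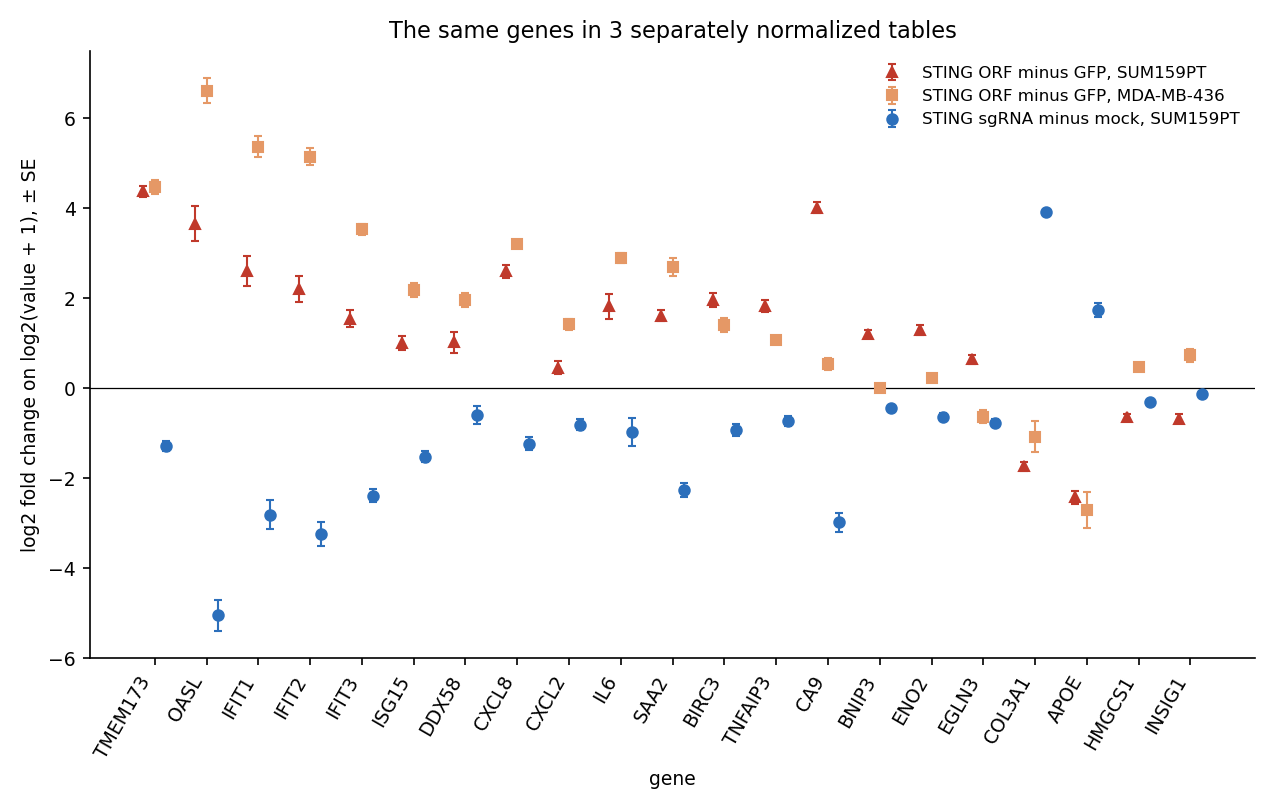
Log2 fold change ± SE of 21 genes for the STING ORF in SUM159PT (red triangles), the STING ORF in MDA-MB-436 (orange squares) and the STING sgRNA in SUM159PT (blue circles). OASL and the IFIT genes are higher with the ORF in both lines and lower with the sgRNA, while BNIP3 and CA9 rise mainly in SUM159PT and HMGCS1 and INSIG1 have opposite signs in the 2 lines.

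In MDA-MB-436 the same ORF gave a similar change of TMEM173 (4.47 ± 0.16, against 4.37 in SUM159PT), to 96.9 and 91.4 RPM from 4.92 and 3.24. Of 14851 genes tested there, 3134 were called (21.1%). Of 14081 tested in both lines, 3655 and 2965 were called and 1205 in both (33% and 40.6%), 1054 in the same direction and 151 (12.5%) opposite. The log2 fold change followed transcript GC content with the same sign in both lines (r = -0.28 in SUM159PT and -0.39 in MDA-MB-436). The part of GC content in the shared direction was not tested. At 2-fold or more, where 1.3% of genes were higher and 0.781% lower in MDA-MB-436, 53 genes were shared (15.9% and 27.5%) and all 53 had the same direction, 29 higher and 24 lower.

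The 5 interferon-stimulated genes that rose most in SUM159PT had larger values in MDA-MB-436, 6.61 for OASL, 5.36 for IFIT1, 5.14 for IFIT2, 3.53 for IFIT3 and 2.18 for ISG15, and 21 of 53 tested members rose there (9.2% over all genes). OASL and IFIT1 averaged 3.78 and 5.6 normalized counts with GFP in MDA-MB-436 and so passed the limit through the STING libraries. Their tests in that line are therefore no independent support. Smaller values than in SUM159PT were found for ZNFX1 (0.23), BST2 (0.23) and PARP9 (0.08, limma adjusted p = 0.684). IFI44, without a call in SUM159PT, rose by 1.91. The chemokines CCL5, CXCL10 and CXCL11, which had 19, 1 and 2 reads over both STING libraries of SUM159PT, averaged 85.4 ± 13.6, 54.1 ± 10.5 and 97.2 ± 1.43 normalized counts (SD, n = 2) in MDA-MB-436 with the STING ORF. CXCL8 (3.20) and IL6 (2.89) rose there too, while RELB and ICAM1 did not pass the test (limma adjusted p = 0.848 and 0.639).

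The metabolic groups did not follow between the lines. In MDA-MB-436 the hypoxia list gave 4 rises and 9 falls of 25 tested, against 9.2% and 11.9% over all genes (0 rises with DESeq2), CA9 changed by 0.54 and BNIP3 had no call (0.01, limma adjusted p = 0.945), and EGLN3 changed by -0.64. The cholesterol list gave 7 rises and 1 fall of 24 tested there, with INSIG1 at 0.73 and HMGCS1 at 0.46. The differences between the lines were not tested, since the tables were normalized separately. Both lines shared lower APOE (-2.71 in MDA-MB-436), CDKN1A (-1.21), COL3A1 (-1.08) and TP63 (-0.86) and higher COL8A1 (2.43). APOE averaged 8.73 ± 8.22 normalized counts with STING in MDA-MB-436 (SD, n = 2), so it passed the limit there through the GFP libraries. Its test in that line is no independent support. MYC, the regulator named by the series, had 2985, 3047, 2969 and 2785 normalized counts in SUM159PT and did not pass the test there (limma adjusted p = 0.457), in MDA-MB-436 (0.181) or with the sgRNA (0.104).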

How the data were processed

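RNA was extracted from cells with a Maxwell kit, per the labels' protocols. HISAT2, featureCounts, StringTie and DESeq2 appear without versions in the submitters' processing notes. No build is given in the sources used here. The deposited values are a signal: the authors scaled the reads of each gene by a library factor, table by table. All values (100%, tolerance 0.05) fell on multiples of a step, which returned the reads and their sum, the depth. Libraries were grouped by labelled line and genotype, leaving 0 columns unmapped. The members and all gene lists were chosen with earlier results of these data known.

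The test was limma-trend (limma 3.58.1 in R 4.3.3) of log2(value + 1) for genes averaging 10 or more in their table. It was two-sided, and p-values were adjusted after Benjamini and Hochberg across every gene of the table tested. The sgRNA contrast was the mean of C1 and C2 minus mock. On simulated SUM159PT counts with 200 of 14890 genes changed 2-fold, 93% were recovered beside 7 false calls. The changed genes averaged at least 2 times the limit of 10, and neither smaller changes nor a GC trend were simulated. These figures therefore do not give the error rate of the real calls. As alternatives, the pseudocount was set to 4, the filter dropped, values quantile normalized, recovered reads tested with edgeR 4.0.16 and DESeq2 1.42.0, replicate numbers entered as a block, a 2-fold limit added and each library left out. A loess correction for transcript GC content was chosen after seeing the data. Named genes were every member of the STING core, interferon, GBP, RNA sensor and T cell chemokine lists, up to 6 called members with the largest change in each other list, and the 12 highest and 12 lowest genes with a mean of at least 50. Further members were named after their values were seen, and some genes that the rule names are not reported here. Nothing in the labels says that replicates came from separate cultures. P-values therefore measure the spread between these libraries, which may be technical. Libraries of a group differed by more than sampling noise (chi-square per gene 1.31 for GFP and 2.73 for STING), so none was treated as a duplicate.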

Additional observations from a re-analysis of the deposited data

Results flagged for a closer look

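Of the 151 genes that the STING ORF called in opposite directions in the 2 lines, 7 were among those named by the rule and had both STING libraries beyond both GFP libraries in each line. The difference between the lines was not tested, because their tables were normalized separately. The log2 fold changes in SUM159PT and MDA-MB-436 were 0.23 and -0.24 for the DNA-binding protein BANF1, -0.57 and 0.74 for the autophagy protein WIPI1, and 0.64 and -0.30 for the mitotic kinase AURKB. They were -0.68 and 0.73 for the sterol regulator INSIG1 and -0.65 and 0.46 for the cholesterol enzyme HMGCS1. They were -0.89 and 0.65 for the microfibril gene FBN1 and -0.76 and 0.75 for the urokinase PLAU. In SUM159PT the call of BANF1 was lost without a filter, with quantile normalization, with DESeq2 and without GFP library 1, GFP library 2 or STING library 1. The calls of WIPI1 and PLAU were lost without a filter, with DESeq2 and without GFP library 2. With GFP and STING in SUM159PT, AURKB had 584.2 and 552.6 against 949.3 and 831.9 normalized counts.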

How the results depend on the processing

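In SUM159PT, 149 of 188 named genes tested were called. Of these 149, 83 kept their call in every fit that left out a library and 74 in every alternative. DESeq2 lost 43, edgeR 1 and the GC correction 3. Of the uncalled genes, 14 changed sign, always without a call. With the GC correction the changes were -0.016 for G3BP1, 0.004 for TRIM56, 0.026 for PQBP1, -0.015 for IFNAR2, -0.012 for IFNAR1, -0.099 for TLR3 and 0.059 for TRAF3. With a library left out they ran from -0.057 to 0.239 for TAX1BP1, -0.039 to 0.205 for IKBKE, -0.115 to 0.013 for TRIM56, -0.07 to 0.106 for IFNAR2, -0.132 to 0.035 for IFNGR1 and -0.285 to 0.058 for IFNLR1. They ran from -0.066 to 0.146 for IRGQ, -0.03 to 0.293 for GBP2, -0.625 to 0.021 for DHX58, -0.087 to 0.125 for TLR3 and -0.141 to 0.117 for TRAF3. Without a filter 884 genes were called (446 higher and 438 lower), with DESeq2 1645 (822 and 823) and at 2-fold 483 (204 and 279). With a library left out the counts ran from 1252 to 5567, from 583 to 2798 higher and from 669 to 2769 lower. Of called genes, 42.2% were higher at 2-fold against 50.7%. Fits with a lone library assume that it varies like the other group. The replicate block called 5225 genes, but same-numbered libraries deviated together only at r = 0.11, the labels name no shared batch, and 2 pairs cannot show pairing. In MDA-MB-436, 328 were called without a filter, 1090 with DESeq2, 309 at 2-fold and 1258 to 3608 with a library left out. For the sgRNA, DESeq2 called 3198, the 2-fold limit 531, C1 alone 3303 and C2 alone 6600. Genes with few reads limit what depth can show, as for CXCL10 and CXCL11.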

Other observations

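Genes of growth and division showed many small changes with the STING ORF. Among ribosome biogenesis genes that MYC is known to activate, 15 of 36 tested rose and 1 fell (13.2% and 12.8% over all genes), with the RNA polymerase I subunit POLR1B at 0.40, the nucleolar GTPase GNL3 at 0.38 and the mitochondrial chaperonin HSPD1 at 0.34. With the sgRNA 24 of 36 fell and 1 rose, and in MDA-MB-436 the ORF gave 0 rises and 9 falls by limma (1 rise at an unadjusted p under 0.05, 0 by edgeR or DESeq2). The 15 rises came down to 2 without GFP library 1 and 3 without GFP library 2. Mitosis genes gave 12 rises and 2 falls of 30, led by AURKB (0.64), HMMR (0.47) and CENPE (0.39), with 21 rises and 3 falls with the sgRNA as well. Mitosis had 2 rises without GFP library 1 and 4 without GFP library 2. Replication genes gave 4 rises and 8 falls of 34, with GINS1 at 0.64 and the helicase subunits MCM5 and MCM2 at -0.55 and -0.38. Replication had 2 falls without GFP library 1 and 1 without GFP library 2.

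Stress and death genes are set beside 13.2% higher and 12.8% lower over all genes. In the unfolded protein and amino acid response 13 of 35 rose and 1 fell, including the serine synthesis enzyme PSAT1 (873.6 and 952.4 with GFP, 1391 and 1449 with STING, 0.64 ± 0.08) and the asparagine synthetase ASNS (0.61), with 3 rises without GFP library 1 or 2. Apoptosis regulators gave 10 rises and 2 falls of 28. The initiator caspase CASP8 rose by 0.56 and BMF, which promotes apoptosis, had 53.2 and 61.3 with GFP and 17 and 20.3 with STING (-1.57 ± 0.24). Without GFP library 1 or 2 that list had 1 rise and 1 fall. Autophagy and lysosome genes gave 10 rises and 6 falls of 35, with the vacuolar pump subunit ATP6V1A (0.61) and LAMP2 (0.53) higher and the lysosomal regulator TFEB (-1.19), GPNMB (-0.80) and the kinase ULK1 (-0.73) lower, and had 4 rises and 4 or 3 falls without GFP library 1 or 2. Of 24 p53 targets, 3 rose, near the share over all genes, and 5 fell, and CDKN1A had the largest fall. Without GFP library 1 the p53 list had 1 fall and no rise, without STING library 1 it had 7 rises and 5 falls, and DESeq2 called 1 fall.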
